A study of Mus musculus with 8 samples.

Results

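Primary murine articular chondrocytes express a set of genes that hold apoptosis in check or start it, and 10 of these genes were followed here under IL-1β: Birc2, Birc3, Xiap, Cflar, Bcl2, Bcl2l1, Mcl1, Bax, Bbc3 and Bcl2l11. They were chosen by name, by their place in the inhibitor of apoptosis (IAP), FLIP and BCL2 families, and make up 10 of the 54658 genes listed. Cartilage of the femoral head was taken from wild-type mice aged 3 weeks, and its cells were released by collagenase and cultured as a monolayer in medium with serum. They were treated for 24 h with IL-1β at 1 ng/mL (n = 4) or with vehicle (n = 4), and bulk RNA-Seq was performed on total RNA. The labels do not say whether the 4 samples of a group came from separate animals or from separate wells of 1 preparation, so p-values measure the spread between these samples, which may be technical.

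Apoptosis runs along 2 routes that meet at the executioner caspases. On the mitochondrial route, BAX and its relative BAK perforate the outer mitochondrial membrane. BCL2, BCL-XL (from Bcl2l1) and MCL1 restrain them, and the BH3-only proteins PUMA (from Bbc3) and BIM (from Bcl2l11) relieve that restraint. On the death receptor route, caspase-8 is activated at receptors such as FAS and the TNF receptor, and FLIP (from Cflar) is a caspase-8 relative without protease activity that controls this step. XIAP binds and blocks active caspases, whereas cIAP1 (from Birc2) and cIAP2 (from Birc3) are ubiquitin ligases of the TNF receptor complex. Birc3 and Cflar are textbook targets of NF-κB, the transcription factor that IL-1β activates, and chondrocyte death is a recognised feature of osteoarthritic cartilage.

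The total count per sample ranged from 10992355 to 17456063, and 1 noncoding gene, Gm26917, took between 13.2% and 14.6% of it in every sample. Treatment could be read from its usual targets. Mmp3 rose 44.7-fold and Mmp13 6.57-fold (adjusted p = 1.12e-33 and 1.02e-28, edgeR), and Il6 had 14 to 26 counts in the 4 IL-1β samples and 0 in each of the 4 vehicle samples. All 8 markers of cartilage cells measured were abundant with vehicle, their summed level being 16110 to 16729 CPM (counts relative to the TMM-scaled total of the sample), and all 8 fell with IL-1β, to a sum of 4179 to 4590 CPM. Markers of endothelial and erythroid cells, and Ptprc, the pan-leukocyte marker, were at or near 0. The 4 endothelial markers summed to at most 1.25 CPM and the 4 globin genes to at most 0.270 CPM in any sample. Ptprc averaged 0.148 CPM in treated samples and 0.107 CPM in vehicle samples. Csf1r and Lyz2, markers of macrophages, were higher, averaging 0.938 and 1.24 CPM in treated samples and 0.721 and 1.86 CPM in vehicle samples. The 7 macrophage and leukocyte markers summed to 15.9 to 19.0 CPM with IL-1β and 11.5 to 12.8 CPM with vehicle, most of it Cd68, a lysosomal gene also found outside macrophages. Of these 7, only Cd68 and Lyz2 could be tested, and Cd68 rose by 0.67 and Lyz2 fell by 0.60 on the log2 scale (adjusted p = 8.49e-07 and 0.0364). Among the 6 markers of fibroblasts and osteoblasts, only Postn was near 0, averaging 0.255 CPM in treated samples and 0.164 CPM in vehicle samples. The sum of the 6 was 223 to 244 CPM in treated samples, against 384 to 400 CPM in vehicle samples. In the latter, Col1a2 averaged 176 CPM and Sp7, an osteoblast factor, 56.3 CPM. Of the 5 that could be tested, 4 fell, and Col1a1 did not pass the test (adjusted p = 0.0761). Over all genes tested, 19.8% fell at an adjusted p under 0.05, the background for this count and for that of the 8 cartilage markers. In bulk RNA, fewer cells of a type and less RNA per cell cannot be told apart, and what part these markers have in the results below was not tested.

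All 10 genes lie on the mouse build GRCm38, and Birc2 and Birc3 are neighbours: Birc2 spans chr9:7818227-7837064 and Birc3 spans chr9:7848699-7873186, both on the minus strand and 11634 bases apart. Xiap spans chrX:42059679-42109656 and Cflar chr1:58711508-58758884, both on the plus strand. Bcl2 spans chr1:106538178-106714274 and Bcl2l1 chr2:152780668-152831728, both on the minus strand, and Mcl1 spans chr3:95658788-95663176 on the plus strand. Bax spans chr7:45461697-45466898 on the minus strand. Bbc3 at chr7:16308393-16318205 and Bcl2l11 at chr2:128126038-128162547 are on the plus strand. Counts are per gene over all exons and between 2 and 13 annotated transcripts a gene, so the long and short isoforms of BCL-XL, MCL1, FLIP or BIM cannot be told apart. Bax shares 12.18% of its exon bases with Gm45808 on the same strand, and Bcl2 shares 6.09% with the antisense gene D630008O14Rik. Whether counting used strand is not given in the sources used here, so reads of D630008O14Rik cannot be told apart from those of Bcl2. Over the bases that Bax shares with Gm45808, strand would not separate the reads of these genes.

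The promoters of the 10 genes were read in RefSeq (GRCm38.p6), as 250 bases before to 50 bases after each start site. The first pair below is the 100 bases just upstream of the starts of Birc3 (chr9:7873171-7873270, minus strand) and Cflar (chr1:58711391-58711490, plus strand), shown because these were the members that rose.
Birc3: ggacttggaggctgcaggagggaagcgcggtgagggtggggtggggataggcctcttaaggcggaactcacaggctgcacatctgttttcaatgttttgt
Cflar: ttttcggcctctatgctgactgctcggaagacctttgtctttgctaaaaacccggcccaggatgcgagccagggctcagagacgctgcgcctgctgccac

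Neither gene's window held the NF-κB consensus, searched as its 10-base motif on both strands, nor the 7-base AP-1 motif TGANTCA. The NF-κB consensus was found at 1 of 3 starts of Bcl2l1, beginning 242 bases upstream (printed from chr2:152830930-152830967, minus strand), and at 1 of 3 starts of Bbc3, at 2 overlapping positions beginning 137 and 136 bases upstream (printed from chr7:16309426-16309476, plus strand). The p53 motif searched was the 10-base arm of which a full p53 element holds 2. A single arm was found in Bax, 201 bases upstream (printed from chr7:45467070-45467119, minus strand), and just after 1 of 2 starts of Birc2. Capitals mark the motif.
Bcl2l1, NF-κB: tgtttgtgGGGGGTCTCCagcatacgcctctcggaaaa
Bbc3, NF-κB: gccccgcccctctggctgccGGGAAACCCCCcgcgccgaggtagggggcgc
Bax, p53 arm: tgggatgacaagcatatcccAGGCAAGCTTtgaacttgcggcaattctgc

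The AP-1 motif was found at no start of any member. Of all 32851 RefSeq promoters of this length, 4.505% held the NF-κB motif, 8.356% the p53 arm and 7.808% the AP-1 motif. Counted per gene, with a match at any of its starts, the shares were 5.136%, 9.554% and 8.973% of 27025 genes. A match is a stretch of letters and was not tested as a binding site, and distal elements lie outside these windows.

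The study centres on miR-146a-5p, whose mature sequence (RefSeq, chr11:43374435-43374456, minus strand) is given with its seed, bases 2 to 8, in capitals. For each gene, the longest coding transcript was taken, and its 3′ UTR was scanned for sites of at least 7 bases: a match to bases 2 to 8, or a match to bases 2 to 7 followed by an A opposite base 1. Xiap held 2 such sites, Bcl2 held 1 and Bcl2l1 held 1, shown with the site in capitals. The first Xiap site is of the kind with the A, and the other 3 match bases 2 to 8.
miR-146a-5p: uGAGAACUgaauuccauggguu
Xiap, UTR base 2086: cttttcttGTTCTCAgagcctca
Xiap, UTR base 4291: agtggtaaAGTTCTCttttggag
Bcl2, UTR base 3697: gccactaaAGTTCTCttctgagc
Bcl2l1, UTR base 207: cacatctcAGTTCTCttggcctc

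Cflar and Bcl2l11 held only 6-base matches, and Birc2, Birc3, Mcl1, Bax and Bbc3 held none. Among 11943 tested genes with a 3′ UTR, 21.444% held a site of at least 7 bases, which is the background for 3 of the 10 members.

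Of the 10 genes, 2 rose with IL-1β (Birc3 and Cflar) and 2 fell (Bcl2l1 and Bcl2), at an adjusted p under 0.05 over all genes tested. Birc2, Xiap, Mcl1, Bax, Bbc3 and Bcl2l11 did not pass the test. Each of the 10 had counts enough to be tested. Among the 14404 genes tested, 20.4% rose and 19.8% fell, so the shares of members called, 2 of 10 in each direction, are close to the background. None of the 10 was called with a 2-fold change by edgeR (0 of 10, and 0 of 10 by DESeq2), against 5.21% of the genes tested. In 2 members, Birc3 and Cflar, the lowest IL-1β sample exceeded the highest vehicle sample, as in 18.7% of the tested genes. In 1, Bcl2l1, the highest IL-1β sample was under the lowest vehicle sample, as in 18.2% of the tested genes. The median log2 fold change was 0.02 over the 10 members and -0.0012 over all genes tested, and the median size of the change, regardless of sign, was 0.08 and 0.16, respectively.

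**Figure D1:**
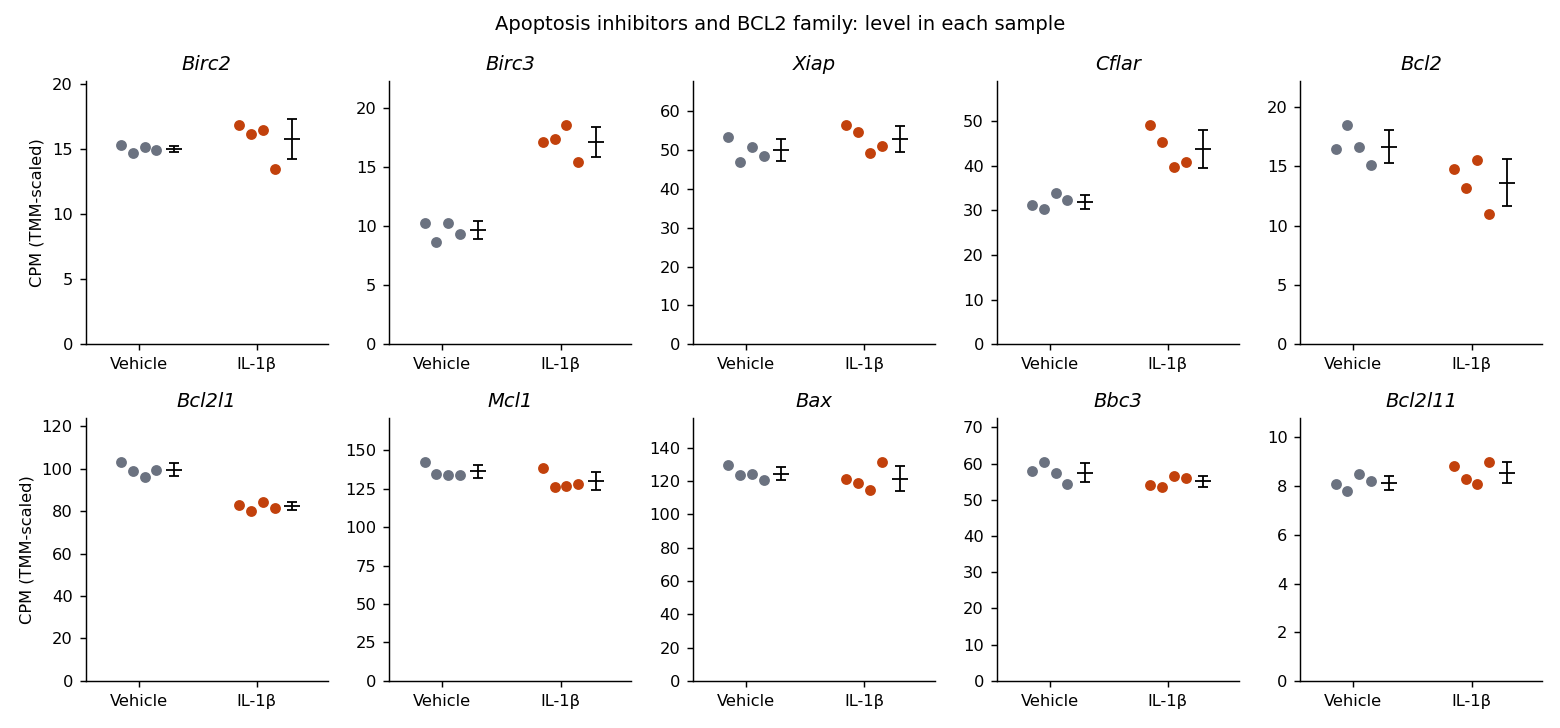
Level of each of the 10 genes in CPM (vertical axis, from 0) in the 4 vehicle samples (grey) and the 4 IL-1β samples (orange). Each point is 1 sample, and bars give the mean ± SD. The groups are apart for Birc3, Cflar and Bcl2l1 and overlap for the other 7 genes.

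Among the 3 IAPs, Birc3 was the gene that passed the test. Birc3 was at 17.1, 17.3, 18.5 and 15.4 CPM in IL-1β replicates 1 to 4 and at 10.2, 8.67, 10.3 and 9.33 CPM in vehicle replicates 1 to 4. The lowest treated sample was well above the highest vehicle sample. Its mean was 17.1 ± 1.29 CPM against 9.62 ± 0.767 CPM (SD, n = 4 each), a 1.78-fold rise (95% interval 1.57 to 2.02; log2 fold change 0.83, SE 0.09, adjusted p = 4.95e-09, edgeR's quasi-likelihood test). The size of this change exceeded that of 93.2% of the genes tested. These levels rest on 190 to 312 counts per IL-1β sample and 142 to 177 counts per vehicle sample.

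Birc2, the neighbour and closest relative of Birc3, did not pass the test. Birc2 was at 16.9, 16.2, 16.5 and 13.5 CPM in the IL-1β samples and at 15.3, 14.7, 15.1 and 14.9 CPM in the vehicle samples. IL-1β replicate 4 was the lowest of the 8, and the other 3 treated samples were the highest. The means were 15.7 ± 1.53 and 15.0 ± 0.264 CPM, and the interval of the fold ran from 0.936 to 1.17 (adjusted p = 0.552). Xiap, the direct caspase inhibitor, was the most abundant of the 3 IAPs, also per length, with 49.2 to 56.5 CPM with IL-1β and 47.0 to 53.5 CPM with vehicle. The groups overlapped over most of their range, and the fold lay between 0.984 and 1.13 (adjusted p = 0.230).

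Cflar, the inhibitor at the death receptor, was the other member to rise. It was at 49.2, 45.4, 39.8 and 40.8 CPM in IL-1β replicates 1 to 4 and at 31.3, 30.3, 34.0 and 32.3 CPM in vehicle replicates 1 to 4. The treated samples varied more among themselves than the vehicle samples did, yet all 4 were higher than all 4 vehicle samples. The mean went from 32.0 ± 1.59 to 43.8 ± 4.34 CPM (SD, n = 4 each), 1.36-fold (95% interval 1.26 to 1.48; log2 fold change 0.45, SE 0.06, adjusted p = 2.79e-07).

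Of the 3 anti-apoptotic BCL2 proteins, the transcripts of Bcl2l1 and Bcl2 fell, where 19.8% of all genes tested did. Bcl2l1, the gene of BCL-XL, was at 83.1, 80.2, 84.5 and 81.3 CPM in the IL-1β samples and at 103.4, 99.1, 96.1 and 99.6 CPM in the vehicle samples. The groups were narrow and did not touch. The mean fell by 17.4%, from 99.5 ± 3.00 to 82.3 ± 1.92 CPM (log2 fold change -0.28, SE 0.04, adjusted p = 3.11e-07).

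Bcl2, the founding member of the family, was at 14.8, 13.2, 15.5 and 11.0 CPM with IL-1β and at 16.4, 18.5, 16.6 and 15.1 CPM with vehicle. IL-1β replicate 3 was above vehicle replicate 4, so the groups overlapped. The mean fell by 18.3%, from 16.7 ± 1.39 to 13.6 ± 2.00 CPM (log2 fold change -0.29, SE 0.09, adjusted p = 0.0119). This call rested on the lowest treated and the highest vehicle sample: without IL-1β replicate 4 the log2 fold change was -0.20 (adjusted p = 0.0740), and without vehicle replicate 2 it was -0.24 (adjusted p = 0.0663).

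Mcl1, a short-lived protein's gene, did not pass the test. Its level was 138.6, 126.1, 126.8 and 127.9 CPM in the IL-1β samples and 142.7, 134.8, 134.0 and 134.1 CPM in the vehicle samples. Replicate 1 stood above the other 3 in both groups, and each of the other treated samples was lower than all vehicle samples. The fold was 0.950 (interval 0.904 to 0.997, adjusted p = 0.0868), and without IL-1β replicate 1 the gene passed the test, with a log2 fold change of -0.11 and an adjusted p of 0.0116.

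None of the 3 pro-apoptotic members passed the test. Bax, the pore-forming effector, was at 114.6 to 131.6 CPM with IL-1β and at 120.4 to 129.4 CPM with vehicle. Both the lowest and the highest of the 8 values were treated samples, and the fold lay between 0.925 and 1.03 (adjusted p = 0.497). Bbc3, a p53 target whose product PUMA binds all anti-apoptotic BCL2 proteins, was at 53.4 to 56.7 CPM with IL-1β and at 54.3 to 60.5 CPM with vehicle, with a fold between 0.902 and 1.02 (adjusted p = 0.263). Bcl2l11, the gene of BIM, was at 8.08 to 9.01 CPM with IL-1β and at 7.80 to 8.49 CPM with vehicle. It had the fewest counts of the 10, between 98 and 140 per sample, and accordingly the widest interval of the pro-apoptotic genes, 0.912 to 1.21 (adjusted p = 0.630).

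**Figure D2:**
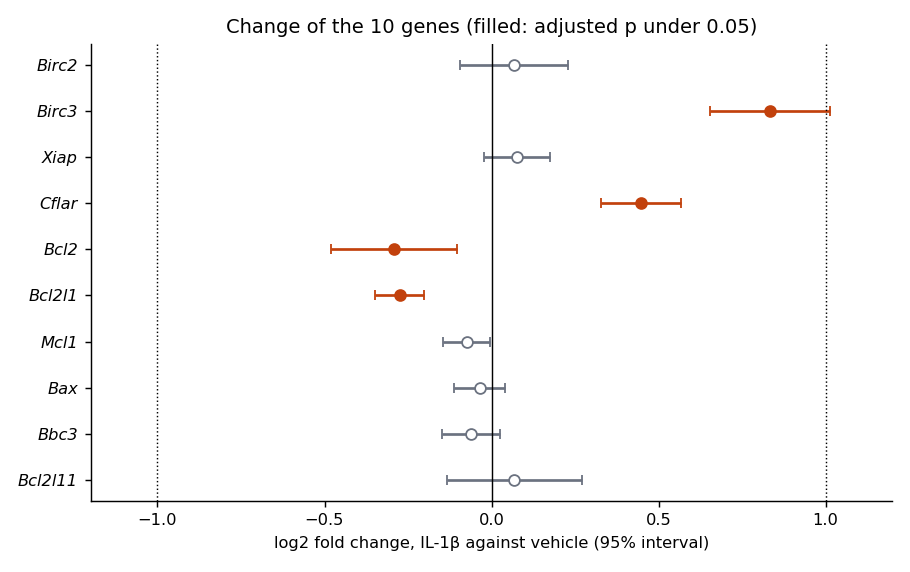
Log2 fold change of each gene, IL-1β against vehicle (horizontal axis), with its 95% interval. Filled orange points passed an adjusted p under 0.05, open grey points did not, and dotted lines mark a 2-fold change. Birc3 and Cflar are to the right of 0, Bcl2l1 and Bcl2 to the left, and the other 6 lie within 0.08 of 0.

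Levels were compared between genes as CPM per kb of exons, since a longer transcript yields more reads. With vehicle, Bax was the highest at 78.9 CPM per kb, above 96.8% of the genes tested, and Bcl2l11 the lowest at 1.01 CPM per kb, a span of 77.8-fold. Mcl1 (39.9 CPM per kb), Bbc3 (27.1 CPM per kb) and Bcl2l1 (21.7 CPM per kb) came next, and the ranges of these neighbours over the 4 samples did not overlap. Xiap followed at 5.28 CPM per kb. Birc2 at 3.28 ± 0.0577 CPM per kb was above Cflar at 2.52 ± 0.125 CPM per kb, and Cflar was above Birc3 at 1.92 ± 0.153 CPM per kb. Birc3 and Bcl2, the latter at 1.82 ± 0.152 CPM per kb, were the only neighbours whose ranges overlapped.

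With IL-1β the order was the same in its upper and lower parts and closed up in the middle. Cflar (3.46 ± 0.343 CPM per kb), Birc2 (3.44 ± 0.335 CPM per kb) and Birc3 (3.41 ± 0.258 CPM per kb) overlapped in their ranges and could not be ordered. Birc3, which had overlapped with Bcl2 in the vehicle samples, no longer did, Bcl2 being at 1.49 ± 0.218 CPM per kb. Bax remained the highest at 77.1 ± 4.61 CPM per kb, and Bcl2l1 stood at 17.9 ± 0.418 CPM per kb. Total exon length was used, and a cell that uses a shorter transcript would have a higher level per length than given.

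**Figure D3:**
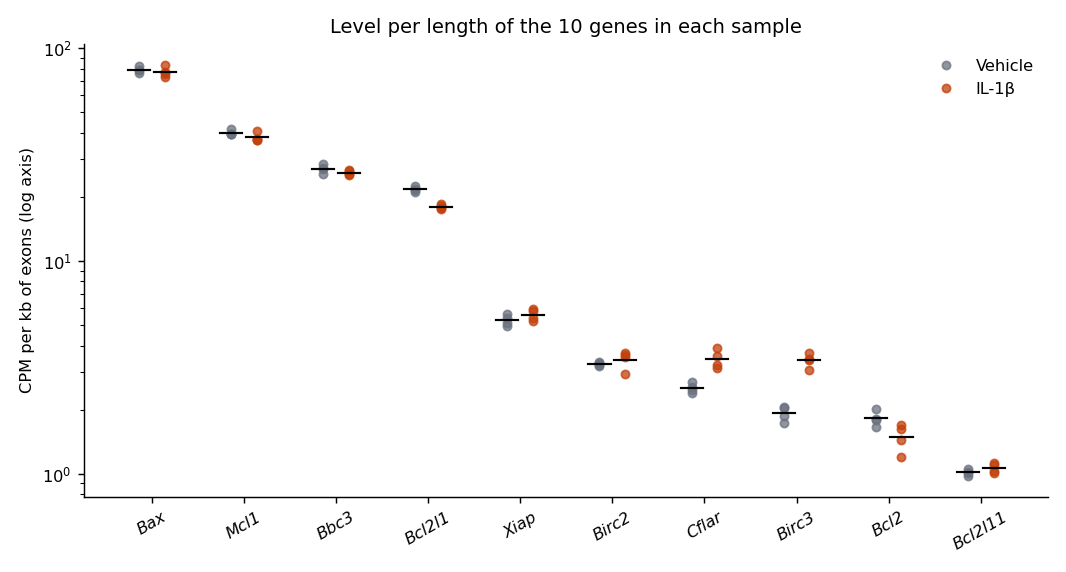
Level per length of the 10 genes (CPM per kb of exons, log axis), ordered by the vehicle mean. Points are the 4 vehicle samples (grey) and the 4 IL-1β samples (orange), and short lines give the means. Birc3 sits at 1.73 to 2.05 with vehicle and at 3.07 to 3.70 with IL-1β, where it reaches Birc2 and Cflar.

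The balance of a pair of genes within a sample does not depend on scaling between samples, and 5 pairs were compared by an exact permutation test over the samples, two-sided, with p-values adjusted over the 5. With 4 samples a group the smallest p such a test can give is 0.0286. The pairs were set by role, with earlier results of these data known, and include genes called above. A ratio that holds Birc3, Cflar or Bcl2l1 partly restates that gene's call and is no separate support. The share of other gene pairs whose groups are apart was not computed. Counts in these ratios are not corrected for length. The difference of a ratio between groups can therefore be read, but its size does not rank the genes of a pair. Birc3 counts were 1.02 to 1.14 times those of Birc2 in the IL-1β samples and 0.591 to 0.679 times in the vehicle samples. The ratio was thus higher in 4 of 4 treated samples, by 0.77 on the log2 scale (exact p = 0.0286, adjusted p = 0.0357). Cflar counts were 3.40 to 4.67 times those of Casp8, the caspase it controls, with IL-1β and 2.32 to 2.94 times with vehicle. The difference was 0.59 on the log2 scale (exact p = 0.0286, adjusted p = 0.0357). Cflar has the longer exons, and per kb its mean was below that of Casp8: 3.46 against 3.84 CPM per kb with IL-1β and 2.52 against 4.22 CPM per kb with vehicle. These levels use total exon length, 12669 bases for Cflar and 2893 for Casp8. Use of a shorter Cflar transcript would raise its level, so this order is not settled.

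Bcl2l1 counts were 0.617 to 0.738 times those of Bax with IL-1β and 0.775 to 0.827 times with vehicle. This ratio of the restraining gene to the effector was lower in 4 of 4 treated samples, with a log2 difference of -0.24 (exact p = 0.0286, adjusted p = 0.0357). Mcl1 counts were 14.2 to 15.7 times those of Bcl2l11 with IL-1β and 15.8 to 17.7 times with vehicle. These groups were close to touching, the highest treated value being 15.70 and the lowest vehicle value 15.79, with a log2 difference of -0.14 (exact p = 0.0286, adjusted p = 0.0357). The ratio of Bcl2 to Bcl2l1 was 0.135 to 0.183 with IL-1β and 0.152 to 0.186 with vehicle, and the log2 difference of -0.03 did not pass the test (exact p = 0.857, adjusted p = 0.857).

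**Figure D4:**
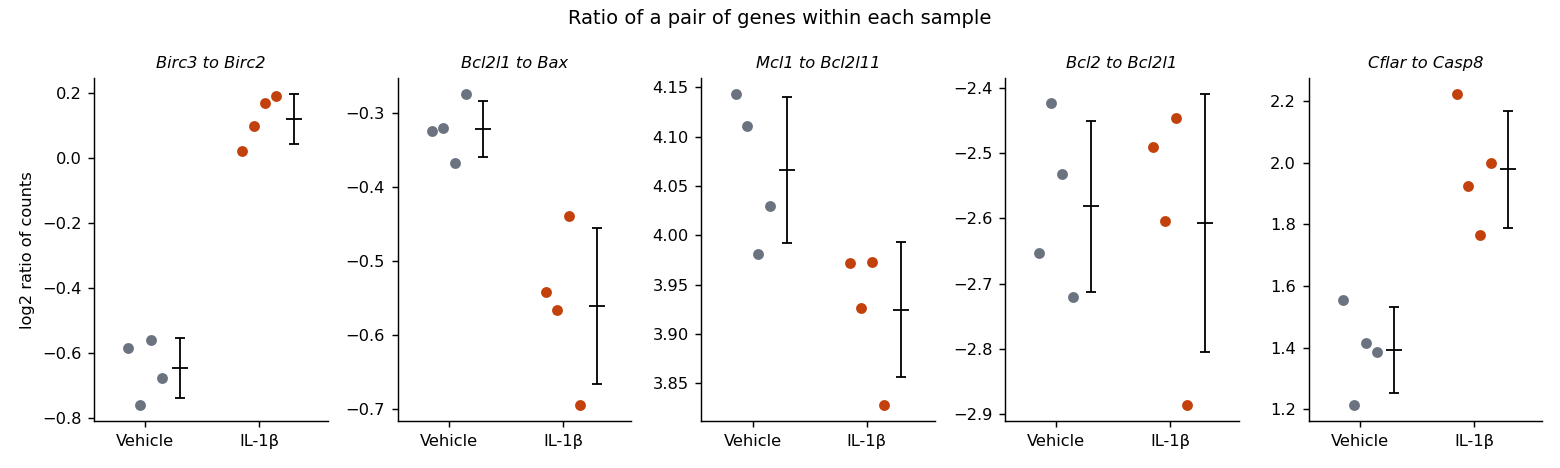
Log2 ratio of the counts of a pair of genes within each sample (vertical axis, a separate scale in each panel) for 4 vehicle (grey) and 4 IL-1β (orange) samples, with the mean ± SD. Groups are apart for every pair but Bcl2 to Bcl2l1, and the gap for Mcl1 to Bcl2l11 is narrow.

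Beyond the 10 members, 68 other genes of the pathway were listed by role, of which 53 could be tested. Of these 53, 20 rose and 14 fell at an adjusted p under 0.05, 19 did not pass, and 6 were past 2-fold, where over all genes tested 20.4% rose, 19.8% fell and 5.21% were past 2-fold. The list's counts are a description and were not tested against these shares. Bok and Pmaip1 are among those that fell and those past 2-fold. Neither could be tested where a CPM above 1 was asked of all 8 samples. The median log2 fold change was 0.03. Most that passed the test were changed by less than 2-fold, as the members were, and 15 genes, including Birc7, Bcl2a1a, Bcl2l10, Naip1, Naip5, Fasl and Tnfsf10, averaged at most 0.442 CPM in either group (the highest, Naip6).

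Among genes of death receptors and their complexes, 8 of the 11 tested rose (20.4% of all genes tested did), the other 3 did not pass, and the median log2 fold change was 0.30. Fas, the receptor of FAS ligand, went from 5.18 ± 0.735 to 14.4 ± 1.94 CPM, 2.79-fold (adjusted p = 1.11e-11). Tnfaip3, whose product A20 edits ubiquitin chains and restrains NF-κB, rose 2.68-fold (adjusted p = 1.27e-10), and Mlkl, the executor of necroptosis, rose 2.55-fold from 1.40 to 3.68 CPM (adjusted p = 5.36e-06). All 3 were higher in every treated sample than in any vehicle sample, as were 6 of the 11 in all and 18.7% of all genes tested. These 3 were named for being past 2-fold, so their separation is no further support. The members of the complex that did not pass were Tnfrsf10b, Fadd and Casp8, the last at 12.2 ± 1.07 CPM in vehicle and 11.1 ± 0.860 CPM in treated samples (adjusted p = 0.288).

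Among 6 partners of the cIAPs and subunits of the linear ubiquitin ligase, 3 rose and 1 fell (20.4% and 19.8% of all genes tested). Traf1, an adaptor that binds TRAF2 and the cIAPs, rose 2.53-fold, from 2.04 ± 0.447 to 5.11 ± 0.477 CPM (adjusted p = 9.40e-08). Traf2, which recruits the cIAPs to the receptor, rose 1.95-fold and fell outside the rule for named genes, so it was picked after its values were seen (adjusted p = 1.89e-15). Of the other IAPs, Birc6 fell by 0.16 on the log2 scale (adjusted p = 2.51e-04) and Birc5, the mitotic survivin, did not pass the test (adjusted p = 0.519). The antagonists of IAPs that are released from mitochondria, Diablo and Htra2, did not pass the test either (adjusted p = 0.604 and 0.721), nor did Sept4.

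In the rest of the BCL2 family, Bok and Pmaip1 were the genes past 2-fold. Bok, a relative of BAX and BAK, fell from 2.90 ± 0.526 to 1.01 ± 0.237 CPM (log2 fold change -1.55, adjusted p = 2.12e-06). Pmaip1, the gene of the BH3-only protein NOXA, which neutralises MCL1, fell from 1.97 ± 0.161 to 0.737 ± 0.147 CPM (log2 fold change -1.38, adjusted p = 2.65e-05). Pmaip1 was tested only because its 4 vehicle samples were above a CPM of 1, all 4 treated samples being at 0.541 to 0.865 CPM, so its place among the called genes supports nothing beyond these values. Bok had treated samples on both sides of that limit (0.653 to 1.15 CPM), and neither gene could be tested where a CPM above 1 was asked of all 8 samples. Bid, the BH3-only protein that caspase-8 cleaves and so links both routes, went the other way, from 19.4 ± 2.14 to 37.2 ± 2.92 CPM, 1.91-fold (adjusted p = 2.49e-12, picked after its values were seen). Bcl2l2, the gene of the anti-apoptotic BCL-W, fell by 0.19 on the log2 scale (adjusted p = 0.00271), and Bak1 rose by 0.18 (adjusted p = 0.0353). Bnip3 and Bnip3l, which act in mitophagy, rose 1.94-fold and 1.89-fold (adjusted p = 3.50e-19 and 1.48e-19).

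Of 6 genes of the apoptosome and the caspases, 2 rose and 1 fell, close to the 20.4% and 19.8% of all genes tested. Casp6 rose 1.64-fold, from 3.52 to 5.79 CPM (adjusted p = 6.85e-05), and Casp9, the caspase of the apoptosome, rose 1.30-fold (adjusted p = 8.24e-04, picked after its values were seen). Cycs, the gene of cytochrome c, fell by 0.23 on the log2 scale (adjusted p = 9.08e-06). Of 10 genes for p53 and its targets, 3 rose and 6 fell, all by less than 2-fold (20.4% and 19.8% of all genes tested rose and fell). Cdkn1a, the cell cycle inhibitor p21, fell from 779 ± 10.3 to 587 ± 16.1 CPM (log2 fold change -0.41, adjusted p = 2.43e-12), and Ccng1 fell by 0.23 on the log2 scale (adjusted p = 1.22e-06), whereas Trp53 itself rose by 0.19 (adjusted p = 9.37e-06). The targets Zmat3 and Phlda3 rose too, by 0.13 and 0.14 on the log2 scale (adjusted p = 7.26e-04 and 4.09e-04). The other lists hold p53 targets too. Those named next were picked with their values known and are not a full set, and they did not move in 1 direction. Pmaip1, tested only through its vehicle samples, fell, and Bax and Bbc3 did not pass the test. Fas and Bid rose, 2.79-fold and 1.91-fold. Of 3 genes that set the stability of the MCL1 protein, 2 fell and 1 did not pass, where 19.8% of all genes tested fell. The ubiquitin ligase genes Huwe1 and Fbxw7 fell by 0.13 and 0.22 on the log2 scale (adjusted p = 6.25e-04 and 0.00597), and the deubiquitinase gene Usp9x did not pass the test. Only RNA was measured, and protein levels, caspase activity and cell death were not.

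**Figure D5:**
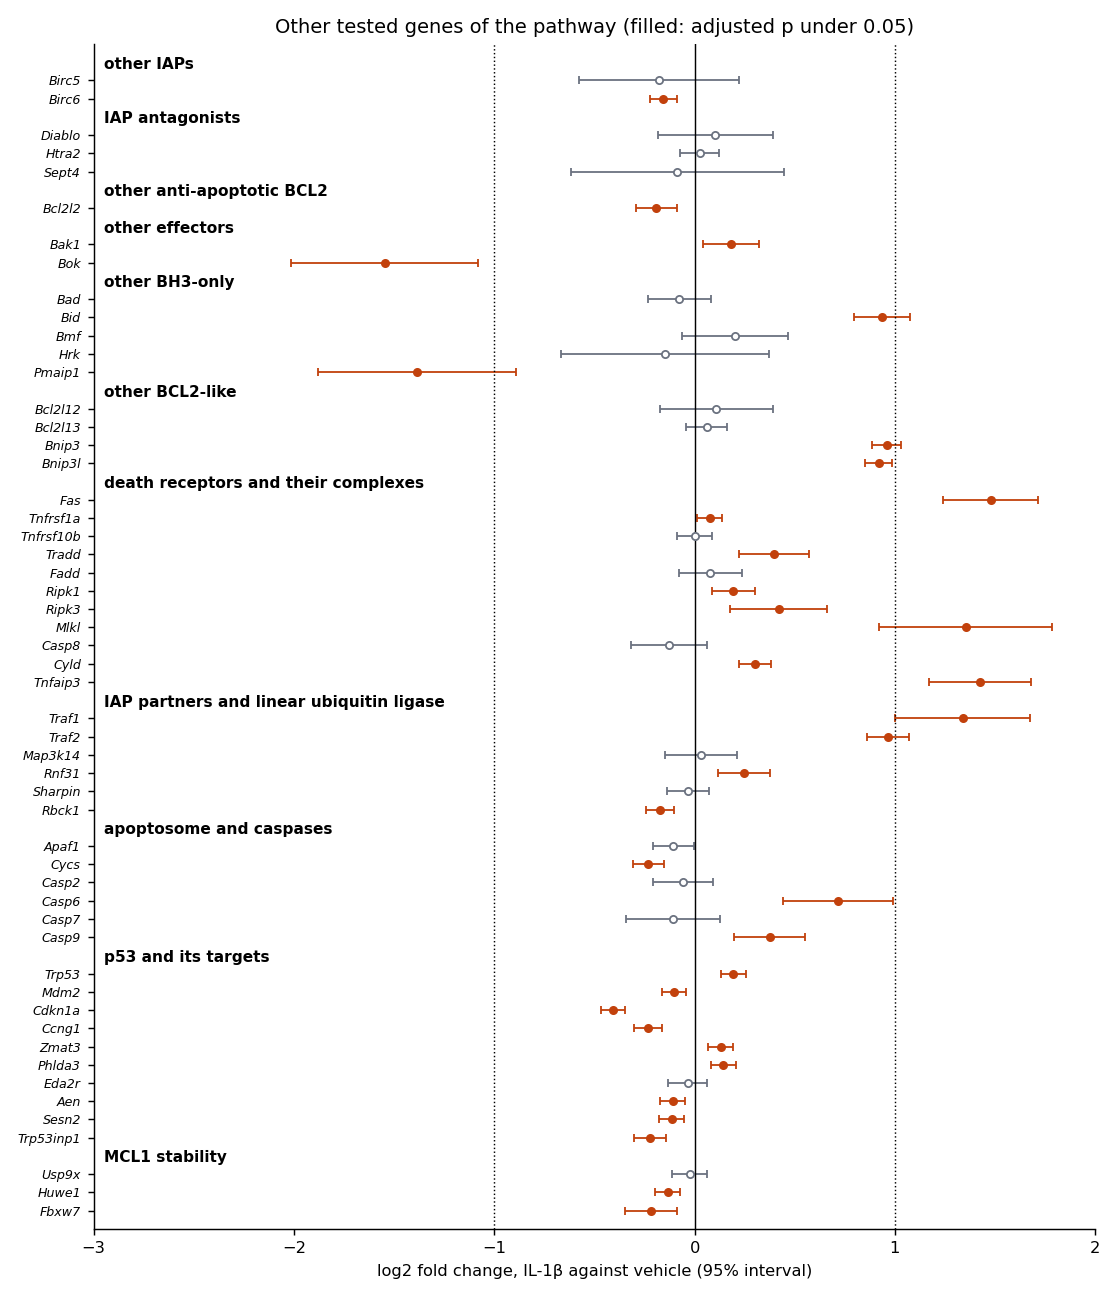
Log2 fold change, IL-1β against vehicle (horizontal axis), with its 95% interval for the 53 other tested genes of the pathway, grouped by role. Filled orange points passed an adjusted p under 0.05, and dotted lines mark a 2-fold change. Fas, Mlkl, Tnfaip3 and Traf1 lie beyond the line on the right, and Bok and Pmaip1 beyond the line on the left.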

How the data were processed

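RNA-Seq reads of 8 samples were trimmed with cutadapt, aligned to mm10 with STAR and counted with featureCounts, according to the study's methods and the labels. The authors deposited whole-number counts for each gene symbol, and beside them each gene's length in bases, a value of another unit. All 8 count columns were used. Whether the counts precede the batch correction named in the methods is not given in the sources used here. The lengths equalled the GENCODE vM21 exon lengths of all 10 members and were used for levels per kb only.

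Library sizes were scaled by TMM. The quasi-likelihood test of edgeR 4.0.16 was run in R 4.3.3 (limma 3.58.1), and treatment was its only term. It covered the 14404 genes that exceeded a CPM of 1 in 4 or more samples, and p-values were adjusted by Benjamini-Hochberg over all of these. Printed adjusted p-values for genes are from this test. Ratios were tested with scipy 1.17.1, and the remaining values came from Python 3.11.15 with numpy 2.4.6, pandas 2.3.3 and statsmodels 0.14.6. Figures were drawn with matplotlib 3.10.9. The code was tested on simulated data. Alternatives were DESeq2 1.42.0, other scalings and filters, a replicate block, 1 RUVs factor and leaving out each sample.

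An item of the lists is not reported here. The members and lists were chosen with earlier results of these data known. Named genes were the 10 members and, of each other list, every gene past 2-fold or otherwise the 2 with the smallest adjusted p. Other genes of these lists, such as Bak1, Trp53, Zmat3, Phlda3 and Usp9x, were named after their values were seen. The samples of each group overlapped in depth, and intervals cover the spread between samples. Replicates of 1 group differed by more than counting noise, with a chi-square per degree of freedom of 1.93 to 5.87, so no library was a copy of another.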

Additional observations from a re-analysis of the deposited data

Results flagged for a closer look

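Over the 10 members, the other named genes and the 5 ratios, 68 groups of 4 samples were searched for a sample far from the other 3, the gap being set against the group's whole range by Dixon's 95% criterion. There were 6 such samples. Chance gives about 1 in 20 groups, which is 3.4 here. Mcl1 was the only member among them, and its far sample was replicate 1 in both groups: 138.59 CPM in IL-1β replicate 1, where the others were at 126.06 to 127.86 CPM, and 142.72 CPM in vehicle replicate 1, where the others were at 134.0 to 134.78 CPM. Bok was at 0.653 CPM in IL-1β replicate 3, and the others of that group were at 1.081 to 1.154 CPM. Htra2 was at 35.2 CPM in IL-1β replicate 4, below the 36.3 to 36.5 CPM of the others. In vehicle replicate 1, Cdkn1a was at 764.2 CPM, and the others were at 782.6 to 786.2 CPM. In vehicle replicate 2, Huwe1 was at 950.6 CPM, and the others were at 997.9 to 1001 CPM. The cause of these gaps was not tested.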

How the results depend on the processing

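Birc3, Cflar and Bcl2l1 kept their direction and passed the test under DESeq2, 2 other scalings, 2 other filters, 1 RUVs factor, the replicate block and without any 1 sample, with log2 fold changes of 0.78 to 0.88, 0.39 to 0.50 and -0.29 to -0.26 when samples were left out. Bcl2 ran from -0.37 to -0.20 over the left-out samples and did not pass without IL-1β replicate 4 or without vehicle replicate 2. Mcl1 ran from -0.11 to -0.053 and passed only without IL-1β replicate 1. The number of members that fell was therefore 1 to 3, and the number that rose was 2 throughout. The difference between groups in the log2 ratio of Bcl2 to Bcl2l1 ran from -0.079 to 0.068 and changed sign without IL-1β replicate 4 or vehicle replicate 2. Diablo, not called in any setting, ran from -0.018 to 0.21. Of all genes, 751 were past 2-fold, 1206 with no filter on low counts (32379 genes tested), 511 with a CPM above 1 in all 8 samples (12964 genes tested, Bok and Pmaip1 not among them) and 183 beyond a log2 fold change of 2, where 0 of the other pathway genes remained. With 3 against 4 samples the smallest exact p for a ratio is 0.0571, so the left-out values of ratios carry no test.

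No pairing by replicate number was seen across genes. The deviations of same-numbered samples correlated with r between -0.07 and 0.04, and those of samples with different numbers with r between -0.085 and 0.091. Such correlations cannot exclude a pairing. With the replicate block, 2857 genes rose and 2786 fell, 2 members rose and 2 fell, and the log2 fold change of Bcl2 was -0.30, with an adjusted p of 0.00636. Counts of about 100 to 140 per sample for Bcl2l11 limit its precision to the interval given.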
